A study of Mus musculus with 3 samples.

Results

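The 59 genes described here encode adhesion molecules of the immunoglobulin superfamily, neurexins and neuroligins, the leucine-rich-repeat proteins, teneurins and latrophilins that act with them at contacts between cells, and the receptor phosphatases of the LAR family. They were taken from a list of gene symbols, which was chosen with earlier results of these data known. All 59 were found among the 41388 genes of the files. RNA had been sequenced from cells of dorsal root ganglia, which hold the sensory neurons of the trunk and limbs. The ganglia were dissected at levels T11 to S1 from C57BL/6 mouse embryos at 14.5 days post coitum, and the dissociated cells were sorted for fluorescence from a Ret-EGFP reporter. Ret is the signalling receptor for ligands of the GDNF family. The genotype label, Tg(Ret-EGFP)SJ, writes the reporter as a transgene, whereas the design text describes heterozygotes with EGFP knocked into the Ret locus. The samples form 1 group of 3 libraries, each a pool: library A from 100 ganglia of 5 embryos, B from 100 ganglia of 6 embryos and D from 80 ganglia of 4 embryos, all pools with both sexes. The labels give neither a population without the reporter nor a second condition, so the comparisons possible are between genes within a library and between the 3 libraries.

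Axons at this stage grow along each other and toward their targets before most of their synapses exist. Immunoglobulin adhesion molecules such as L1 and the contactins sit on the axon surface, where they bind their own kind or each other across membranes and, on the inside, couple to ankyrins and other scaffolds. Neurexins and LAR phosphatases act mainly from the presynaptic side, each with several alternative partners on the facing membrane, and latrophilins bind both teneurins and Flrt proteins. Because paralogs in these families differ in partners and in the sites they occupy, the question asked of each family was which of its genes the sorted cells expressed, and at what level against its relatives.

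Of the 59 genes, 57 reached a mean of at least 1 TPM (a transcript level per unit of gene length, scaled to the same total in each library), against a background of 33.6% of all 41388 genes. In every library 52 reached 1 TPM, where the background was 30.0%. A mean of 10 TPM was reached by 35 genes, 59.3% of the list, against 17.4% of all genes. At 50 TPM there were 10 genes, against 6.88% of all genes. Above 100 TPM stood Lrrn1 and L1cam alone. Because the list was chosen with earlier results of these data known, these shares describe the list and test nothing. The median over the 59 genes was 14.0 TPM in library A, 13.3 in B and 11.4 in D (12.9 ± 1.36 TPM, SD, n = 3 libraries, as for every ± below), beside 10.6 ± 1.78 TPM for all genes of at least 1 TPM. In pooled RNA a low level can come from few cells with much RNA or from many cells with little, and these cannot be told apart.

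The genes below 1 TPM were Dscaml1, a paralog of the self-avoidance receptor Dscam, with counts of 6, 1 and 1 in A, B and D, and Adgrb1, an adhesion G-protein-coupled receptor, at 0.29, 0.75 and 0.24 TPM. Just above 1 TPM lay Lrrc4b (1.06), Tenm1 (1.18), Nlgn1 (1.34), Cntn3 and Islr2 (both 1.37), Thy1 (1.40) and Lrrc4 (1.46 TPM). Thy1, a GPI-anchored surface glycoprotein of mature neurons, had 9, 26 and 37 counts. Islr2, also called Linx, is known to associate with neurotrophin receptors and Ret on sensory axons, and had 16, 75 and 114 counts. No gene on the list had 0 counts in any library. Without library A the mean of Tenm1 was 0.772 TPM and that of Dscaml1 0.016 TPM, and without B that of Adgrb1 was 0.262 TPM.

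**Figure D1:**
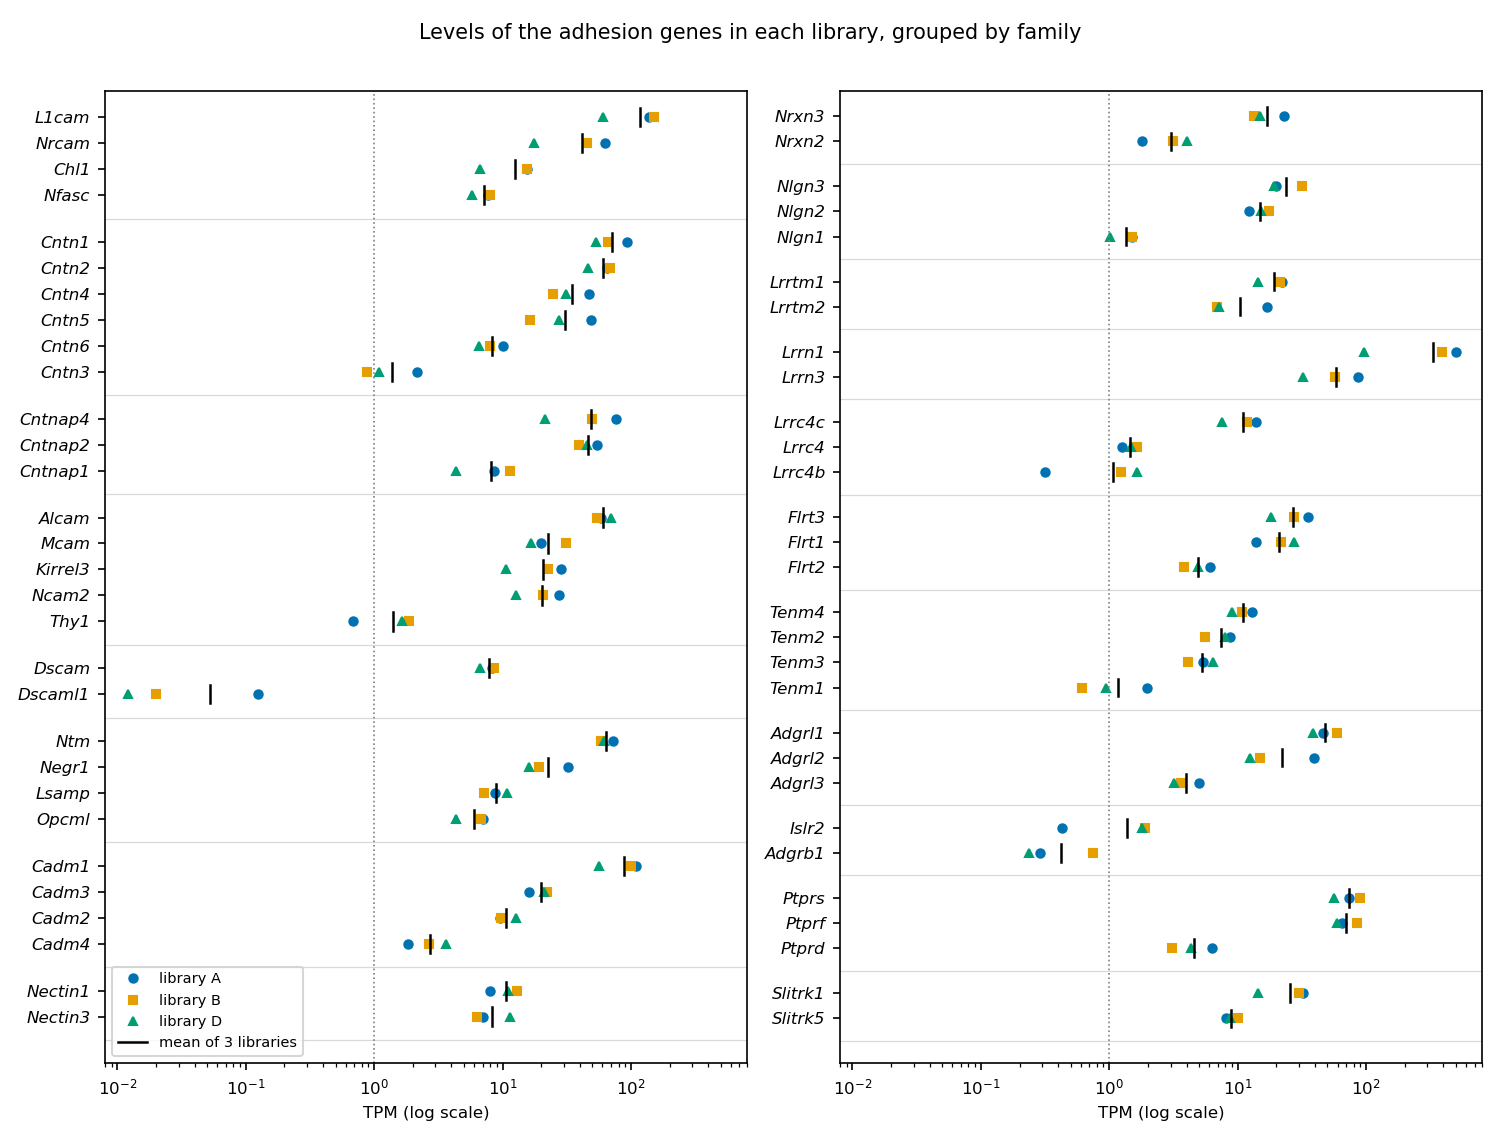
Level of each of the 59 genes in libraries A, B and D (TPM, log axis), grouped by family. A point is 1 library, a vertical bar the mean of the 3, and the dotted line 1 TPM. Lrrn1 is the highest gene in all 3 libraries (506, 394 and 96.2 TPM) and Dscaml1 lies lowest.

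Libraries A, B and D held 20181558, 20355302 and 29061086 counts. All 12 sensory neuron markers (such as Tubb3, Isl1 and Pou4f1) exceeded 100 TPM on average, with summed levels between 34495 and 39498 TPM. Of 12 markers of Schwann precursors and satellite glia, 9 reached 1 TPM, and their sum was lowest in A (617 TPM, against 995 in B and 1013 in D). Of 8 mesenchyme and pericyte markers 6 did, with a sum of 70.9 TPM in B against 19.2 in A and 19.4 in D. Of 6 erythroid markers 5 did, with a sum of 304 TPM in D against 84.8 in A and 74.8 in B. Endothelial, macrophage and skeletal muscle markers reached 1 TPM in 1, 3 and 2 of 6 genes, with sums between 3.92 and 37.0 TPM, and Myog was at 0. None of 6 spinal cord markers did, with Mnx1, Olig2 and Lbx1 among those at 0 counts in all libraries.

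Start regions of 5 genes are printed because of the levels of these genes: Lrrn1 was the highest gene, Cntn1 and Cntn3 were the paralogs farthest apart among the 61 pairs with enough counts to compare, and Ptprf and Ptprs were a pair of nearly equal level. They were chosen after the levels had been seen. Each is the 150 bases before the first start site that RefSeq lists (build GRCm38.p6), written 5′ to 3′ on the gene's strand with every CG dinucleotide in capitals. The windows are chr6:107529576-107529725 (plus strand) for Lrrn1, chr15:92051015-92051164 (plus strand) for Cntn1, chr6:102464668-102464817 (minus strand) for Cntn3, chr4:118291398-118291547 (minus strand) for Ptprf and chr17:56476481-56476630 (minus strand) for Ptprs. The start sites of these 5 genes lie within 8 bases of the gene starts in the deposited files.
Lrrn1: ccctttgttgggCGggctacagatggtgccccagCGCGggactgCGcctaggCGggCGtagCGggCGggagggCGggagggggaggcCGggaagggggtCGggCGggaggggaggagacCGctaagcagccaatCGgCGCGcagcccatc
Cntn1: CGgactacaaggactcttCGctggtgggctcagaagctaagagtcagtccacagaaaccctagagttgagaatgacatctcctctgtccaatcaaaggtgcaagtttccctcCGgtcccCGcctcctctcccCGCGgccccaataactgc
Cntn3: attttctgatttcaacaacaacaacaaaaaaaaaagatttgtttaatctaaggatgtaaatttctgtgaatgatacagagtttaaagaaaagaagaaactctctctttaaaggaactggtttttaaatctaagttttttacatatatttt
Ptprf: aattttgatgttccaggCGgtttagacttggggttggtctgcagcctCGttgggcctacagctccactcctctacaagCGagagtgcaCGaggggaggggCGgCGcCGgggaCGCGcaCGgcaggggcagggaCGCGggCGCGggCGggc
Ptprs: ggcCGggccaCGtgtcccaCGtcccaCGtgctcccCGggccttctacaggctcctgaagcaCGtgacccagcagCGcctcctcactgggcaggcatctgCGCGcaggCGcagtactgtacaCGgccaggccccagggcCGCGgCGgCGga
The windows held 16 CG dinucleotides for Lrrn1, 6 for Cntn1, 0 for Cntn3, 15 for Ptprf and 15 for Ptprs. Over the 45 listed genes that RefSeq's table held, the median was 6 in 150 bases, against 4 for all 27025 genes of the table. For 25 of the 45 the start site lay within 100 bases of the deposited gene start. Others lay far from it (Ntm by 549689 bases), so their windows may not be the start regions of the transcripts counted. At least 5 were present in 30 of the 45 (66.7%, against 46.2% of all). Searched on both strands, GGGCGG was present in 17 of 45 windows (37.8%, against 29.0% of all genes), CCAAT in 8 (17.8%, against 25.3%), CAGCTG in 3 (6.67%, against 8.21%), TATAAA in 2 (4.44%, against 8.08%) and TAATTA in 0 (against 2.80%). Of the 5 windows printed, GGGCGG occurs in those of Lrrn1 and Ptprf, and CCAAT in those of Lrrn1 and Cntn1. A match of letters describes the sequence only.

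Within the families, 64 pairs of paralogs were compared as the log2 ratio of TPM inside a library, of which 61 were kept because each library held 10 or more counts for each of the genes. The same gene was higher in 3 of 3 libraries for 55 pairs, and for 54 of these the mean ratio also exceeded its SD (the exception was Lsamp to Opcml). In 34 pairs the mean difference exceeded 4-fold. Pairs that share a gene are not independent, and no matching counts were made for pairs of other genes. These counts therefore describe the listed pairs only. With 3 libraries an exact permutation test that flips the signs of the ratios (two-sided) cannot go below p = 0.25, which the 55 pairs had (0.277 after Benjamini-Hochberg adjustment over 61), so no ratio could pass 0.05 and the spread between libraries is the measure of error. No order held in all 3 libraries for Cntn1 and Cntn2, Cntn4 and Cntn5, Cntnap2 and Cntnap4, Nectin1 and Nectin3, Flrt1 and Flrt3, or Ptprf and Ptprs. Among the 34 pairs that were neighbours in their family's order of levels, the order held in all libraries for 28. That order was itself taken from the mean over the same 3 libraries.

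**Figure D2:**
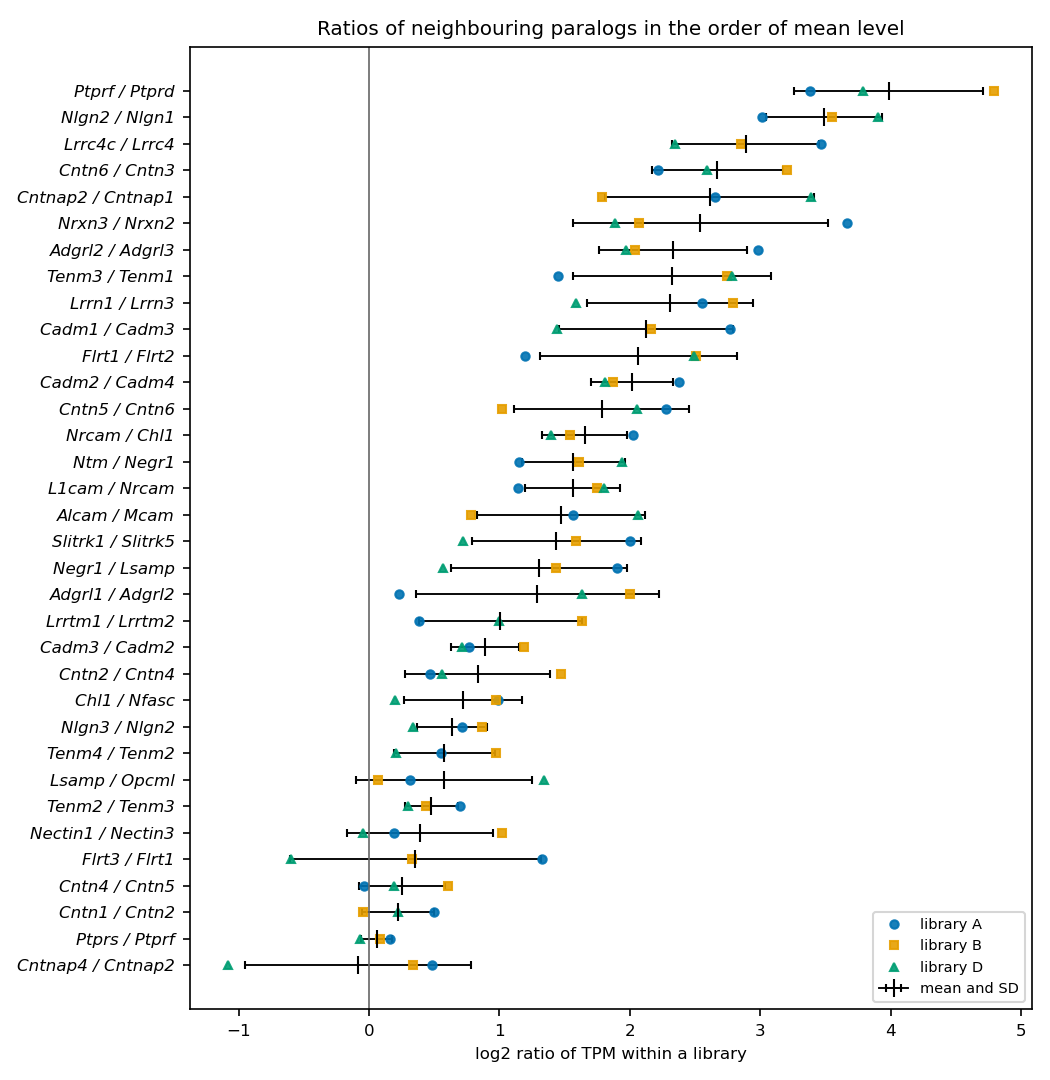
Log2 ratio of TPM between paralogs that are neighbours in the order of mean level, with the gene of higher mean TPM first, 1 point per library (A, B and D), and the mean ± SD. Points of 28 of 34 pairs lie on 1 side of 0 in all 3 libraries, whereas those of Ptprs and Ptprf sit close to 0 on both sides of it (SD 0.12).

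The L1 family comprises transmembrane proteins that bind ankyrin inside the cell. L1cam (ENSMUSG00000031391, chrX:73853778-73896105, minus strand, build GRCm38.p2 as for all gene positions), which carries axon growth and bundling, stood at 138 TPM in library A, 152 in B and 60.8 in D. It made up 65.9 ± 3.70% of the family's summed TPM. Nrcam, which acts in guidance and later at nodes of Ranvier, had 62.6 TPM in library A, 45.3 in B and 17.5 in D. Both genes had their lowest level in D, where Nrcam was below 18 TPM, and the ratio of L1cam to Nrcam still favoured L1cam everywhere (log2 1.56 ± 0.36). Chl1, the close homologue of L1, had 15.4 TPM in library A, 15.6 in B and 6.64 in D. Its ratio to L1cam varied little between libraries (L1cam to Chl1, log2 3.16, 3.29 and 3.19 in A, B and D), although both genes were lower in D. Nfasc, the neurofascin of nodes and axon initial segments, was the lowest at 7.17 ± 1.19 TPM, a 15.3-fold difference from L1cam (log2 3.93 ± 0.47).

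Contactins are GPI-anchored proteins that reach the inside of the cell through partners such as Cntnap proteins. Cntn1 had 92.5 TPM in library A, 66.3 in B and 53.7 in D. Cntn2, known as TAG-1 on early axons, had 65.5 TPM in library A, 68.7 in B and 46.0 in D. Cntn1 was the higher in A and D and Cntn2 in B, so these neighbours did not differ beyond their spread (log2 0.22 ± 0.27). Cntn1 took 34.3 ± 1.77% and Cntn2 29.8 ± 6.52% of the contactin sum. The next pair also ran together: Cntn4 had 47.4 TPM in library A, 24.8 in B and 31.2 in D. Cntn5 had 48.8 TPM in library A, 16.3 in B and 27.3 in D. Both were lowest in B. Cntn6 was lower (8.22 ± 1.74 TPM), at a nearly fixed distance below Cntn1 (log2 ratio of Cntn1 to Cntn6 3.09 ± 0.10). Cntn3 was the only contactin near 1 TPM (1.37 ± 0.691 TPM), and Cntn1 exceeded it 54.3-fold (log2 5.76 ± 0.43), the widest of the 61 ratios. The start region printed for Cntn3 has no CG dinucleotide and that for Cntn1 has 6. Those of Cntn2, Cntn4, Cntn5 and Cntn6 have 8, 0, 23 and 2, with that of Cntn4 lying 441105 bases from its deposited gene start. Whether the number of CG goes with level was not tested.

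Of the contactin-associated proteins, Cntnap2 later clusters with Cntn2 beside nodes and Cntnap1 pairs with Cntn1 where glia attach to the axon. Cntnap2 had 54.1 TPM in library A, 39.6 in B and 45.6 in D, below its partner Cntn2 in every library and by least in D. Cntnap4 had 75.8 TPM in library A, 50.1 in B and 21.6 in D. Cntnap4 exceeded Cntnap2 in A and B and was the lower of them in D, so that their log2 ratio (Cntnap2 to Cntnap4) was -0.49, -0.34 and 1.08 in A, B and D. Cntnap1 reached 8.14 ± 3.57 TPM and stayed under both in every library, as well as far under its partner Cntn1.

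Alcam, a homophilic adhesion molecule of axons and immune cells, was the highest of the remaining immunoglobulin proteins outside larger families, at 58.5 TPM in library A, 53.9 in B and 69.7 in D. It was 1 of 9 genes on the list that were highest in D. Mcam, which also marks endothelium and pericytes, had 19.8 TPM in library A, 31.4 in B and 16.7 in D. It was highest in B, where the sum of mesenchyme and pericyte markers was highest too (70.9 TPM) but that of endothelial markers was not (4.21 TPM, against 4.86 in A and 3.92 in D). The part of these cells in the Mcam values was not tested. Kirrel3, a homophilic protein of synapse formation, had 28.3 TPM in library A, 22.5 in B and 10.7 in D. Ncam2, known from olfactory axons, had 27.6 TPM in library A, 20.8 in B and 12.6 in D. Both were highest in A and lowest in D. Dscam had 8.21 TPM in library A, 8.64 in B and 6.64 in D and Thy1 1.40 ± 0.635 TPM.

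The IgLON proteins are small GPI-anchored molecules that pair with one another. Ntm, neurotrimin, was the highest with 72.0 TPM in library A, 58.8 in B and 61.9 in D, and held 63.4 ± 3.23% of the family sum. Negr1 had 32.4 TPM in library A, 19.3 in B and 16.2 in D. Ntm exceeded it by log2 1.57 ± 0.39. Lsamp followed at 8.91 ± 1.90 TPM and Opcml at 6.03 ± 1.50 TPM, whose ratio (log2 0.57 ± 0.68) did not exceed its SD.

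Cadm proteins, also called SynCAMs or nectin-like proteins, bind across contacts, and known pairs join an axonal Cadm to a glial one. Cadm1 had 110.4 TPM in library A, 99.5 in B and 56.7 in D. Libraries A, B and D gave it 80.0%, 74.1% and 60.3% of the family sum. Cadm3, the axonal partner in contacts with Schwann cells, had 16.2 TPM in library A, 22.3 in B and 20.9 in D. Cadm2 had 9.51 TPM in library A, 9.77 in B and 12.8 in D. Cadm1 thus stood above Cadm3 by log2 2.12 ± 0.66 and above Cadm2 by log2 3.01 ± 0.75, with the smallest distance in D in both cases. Cadm4, the known glial partner, had 1.83 TPM in library A, 2.67 in B and 3.65 in D, and Cadm1 exceeded it 32.7-fold. Cadm4 was lowest in A, as was the summed level of glial markers (617 TPM, against 995 and 1013), whose part in the Cadm4 values was not tested.

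Nectins anchor adherens junctions through afadin. Nectin1 had 8.04 TPM in library A, 12.9 in B and 11.0 in D and Nectin3 averaged 8.24 ± 2.72 TPM. Their order changed between libraries (log2 ratio 0.19, 1.02 and -0.05 in A, B and D), so they did not differ beyond their spread.

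Neurexins are presynaptic receptors. Nrxn3 had 22.9 TPM in library A, 13.3 in B and 14.9 in D, and Nrxn2 was lower in each library at 1.80 TPM in library A, 3.16 in B and 4.05 in D. The log2 ratio of Nrxn2 to Nrxn3 was -2.54 ± 0.98, with the widest distance in A, where Nrxn3 was highest and Nrxn2 lowest. Neuroligins are the classic partners of neurexins. Nlgn3 had 20.0 TPM in library A, 31.9 in B and 19.1 in D. Nlgn2, the neuroligin of inhibitory synapses, had 12.2 TPM in library A, 17.5 in B and 15.1 in D. Nlgn3 was the higher of the pair in every library (log2 ratio of Nlgn2 to Nlgn3 -0.64 ± 0.27), while Nlgn1, the neuroligin of excitatory synapses, averaged 1.34 ± 0.286 TPM, 17.5-fold below Nlgn3. In Nlgn3, 41.2% of the exonic length is shared with Gm21986 on the same strand, a gene with a mean of 3 counts. How reads in the shared part were counted is not given in the sources used here. In Adgrl1, a latrophilin described below, 12.9% is shared with Gm10644 on the opposite strand, which had a mean of 1 count.

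Lrrtm proteins are another class of neurexin partners. Lrrtm1 had 22.3 TPM in library A, 21.4 in B and 14.3 in D. Lrrtm2 had 17.0 TPM in library A, 6.87 in B and 7.19 in D. Lrrtm1 was the higher in all libraries (log2 1.01 ± 0.63), by least in A, where Lrrtm2 was more than 2-fold above the mean of the other libraries.

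Lrrn1 (ENSMUSG00000034648, chr6:107529726-107570228, plus strand), a transmembrane protein with leucine-rich repeats and an immunoglobulin domain, was the highest gene on the list in every library, at 506 TPM in library A, 394 in B and 96.2 in D. It alone made up 23.9% of the summed TPM of the 59 genes in A, 21.6% in B and 8.40% in D. D lay far below both other libraries. Lrrn3 had 86.1 TPM in library A, 57.0 in B and 32.1 in D, and Lrrn1 exceeded it 4.96-fold (log2 2.31 ± 0.64), by least in D. Of the netrin-G ligands, Lrrc4c had 13.9 TPM in library A, 11.8 in B and 7.57 in D. It held 80.3 ± 9.54% of that family's sum, Lrrc4 and Lrrc4b being near 1 TPM. Slitrk proteins bind LAR phosphatases. Slitrk1 had 32.2 TPM in library A, 30.2 in B and 14.4 in D. Slitrk5 was lower in all libraries (8.93 ± 1.00 TPM, log2 ratio of Slitrk1 to Slitrk5 1.44 ± 0.65).

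Flrt proteins and teneurins are both ligands of latrophilins. Flrt3 had 35.1 TPM in library A, 27.3 in B and 18.2 in D. Flrt1 had 14.0 TPM in library A, 21.7 in B and 27.6 in D. Flrt3 was highest in A and lowest in D and Flrt1 the reverse, so that Flrt3 was 63.6% of the Flrt sum in A and 35.9% in D, while the sum itself stayed between 50.7 and 55.1 TPM. Flrt2 was the lowest at 4.95 ± 1.16 TPM. Of the 4 teneurins, Tenm4 had 12.9 TPM in library A, 10.9 in B and 9.10 in D, Tenm2 7.40 ± 1.67 TPM, Tenm3 5.30 ± 1.18 TPM and Tenm1 1.18 ± 0.719 TPM. The order Tenm4, Tenm2, Tenm3, Tenm1 was the same in every library. Among the receptors, Adgrl1 had 46.4 TPM in library A, 59.4 in B and 38.7 in D. Adgrl2 had 39.5 TPM in library A, 14.9 in B and 12.5 in D. The 2 were near each other in A and farther apart in B and D (log2 ratio of Adgrl1 to Adgrl2 0.23, 2.00 and 1.63 in A, B and D). The mean of Adgrl2 rested on A, being 22.3 ± 15.0 TPM over all libraries and 13.7 TPM without A. Adgrl3 averaged 3.93 ± 0.943 TPM, 12.3-fold below Adgrl1.

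LAR phosphatases are receptors on axons and presynaptic membranes. Ptprs, the receptor for heparan and chondroitin sulfate proteoglycans, had 73.2 TPM in library A, 89.4 in B and 56.5 in D. Ptprf, LAR itself, had 65.5 TPM in library A, 84.4 in B and 59.3 in D. Their mean ratio was the nearest to 0 of the 61 (log2 ratio of Ptprf to Ptprs -0.16, -0.08 and 0.07 in A, B and D). They took 47.4 ± 2.11% (Ptprf) and 49.4 ± 2.00% (Ptprs) of the family sum. Ptprd reached only 4.55 ± 1.63 TPM, 16.5-fold under Ptprs. As CPM, which scales counts to the library total without correcting for length, Ptprf instead exceeded Ptprs by log2 0.33, and Chl1 to Nfasc, Negr1 to Lsamp and Nectin1 to Nectin3 likewise changed sign, since their lengths differ. Ratios that kept their sign also changed in size. Ptprd to Ptprs (exonic lengths 22.7 and 6.97 kb) went from log2 -4.04 as TPM to -2.34 as CPM. Cadm1 to Cadm4 went from 5.03 to 7.19.

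Differences between the libraries were tested for every gene with edgeR's goodness-of-fit test, which finds genes that vary more than others of their level. It called 24 of 13530 genes (0.177%) at a Benjamini-Hochberg adjusted p under 0.05. Of the listed genes 56 could be tested, and 0 were called (Dscaml1, Lrrc4b and Thy1 had too few counts), nor was any by DESeq2's dispersion outliers. The model's common coefficient of variation between libraries was 30.3%, so the absence of calls does not show that the listed genes had equal levels. At an unadjusted p under 0.05 there were 7 (12.5%), against 6.11% of all genes tested. This share depended on library A: without A it was 1 of 58 (1.72%), against 4.98% of all genes. Without B it was 6 of 57 (10.5%, against 5.14%) and without D 7 of 56 (12.5%, against 5.1%). With all 3 libraries Lrrn1 had the lowest p, and its log2 CPM in D differed from the mean of A and B by -1.88. Its edgeR adjusted p was 0.210, and between 0.111 and 0.9996 over the alternative settings. The others, with edgeR adjusted p from 0.608 to 0.789, were Islr2 (A, difference -2.17), Adgrl2 (A, 1.36), Cntn5 (B, -1.32), Nrcam (D, -1.27), Cntnap4 (D, -1.18) and Tenm1 (B, -1.31), each named with the library that stood apart. The genes low in D (Lrrn1, Nrcam, Cntnap4) were low in the deepest library, whose erythroid marker sum was 304 TPM, and the part of depth or of these cells was not tested.

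By size alone, 6 of 56 listed genes were more than 2-fold higher in A than the mean of the others (background 3.18%) and 2 lower (2.85%). In B 1 was higher (3.61%) and 2 lower (2.94%), and in D 4 were higher (4.45%) and 3 lower (6.78%). The 6 higher in A were Adgrl2, Tenm1, Lrrn1, Lrrtm2, Cntn5 and Cntnap4. The 4 higher in D were Islr2, Nectin3, Nrxn2 and Cadm4. Islr2 and Nrxn2 were also the 2 genes lower in A. The median difference over the 56 genes came to 0.19, 0.05 and -0.08 in A, B and D on the log2 scale, against 0.03, -0.01 and 0.00 over all genes tested. The sign in A and D changed when the trend of these differences on gene length was removed: the medians were then -0.021 in A and 0.064 in D. Summed over the 59 genes, TPM came to 2111, 1824 and 1145 in A, B and D, or 1606, 1430.2 and 1049 without Lrrn1. The lowest of a gene's 3 TPM values lay in D for 32 of the 59 (54.2%, beside a background of 55.7%), in A for 12 (background 23.7%) and in B for 15 (20.7%). The highest lay in A for 31 (52.5%, background 42.6%), in B for 19 (34.9%) and in D for 9 (22.5%).

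**Figure D3:**
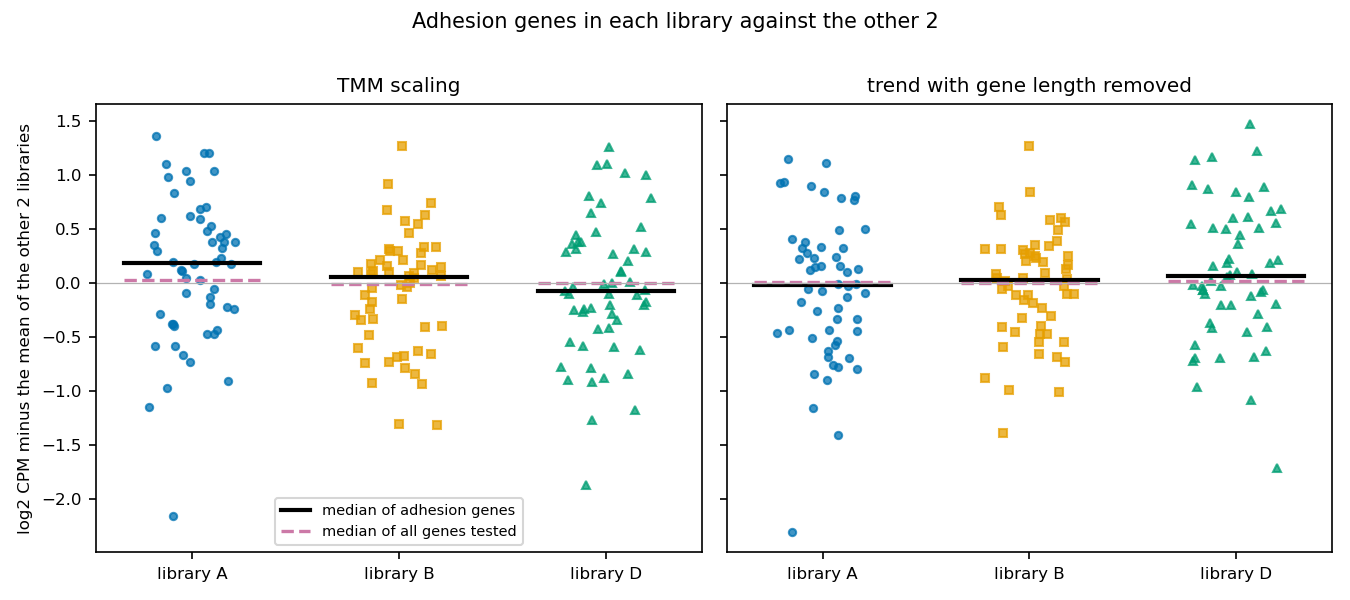
Difference in log2 CPM between a library and the mean of the other 2 for the 56 genes tested (1 point per gene in each library, with lines for their median and for that of all genes tested), after TMM scaling (left) and with the trend on gene length removed (right). On the left Lrrn1 lies lowest in D (-1.88) and Islr2 lowest in A (-2.17), and the medians of A and D (0.19 and -0.08) change sign on the right (-0.021 and 0.064).

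The listed genes were long. Their median genomic span, from first to last exon, was 177 kb, against 19.1 kb for all genes of at least 1 TPM. Over 500 kb were 19 genes (32.2%), against 1.04% of expressed genes, and over 100 kb 34 (57.6%), against 12.5%. Ptprd (2271 kb), Cntnap2 (2241 kb) and Lsamp (2197 kb) were the longest. Exonic length was less extreme, with a median of 6.97 kb against 3.35 kb. Level and span were almost unrelated across the list (Spearman's rho -0.061 over 59 genes, which are not independent, and 0.049 over 13897 expressed genes). The 19 genes over 500 kb had a median of 10.7 TPM and the other 40 of 19.6 TPM, beside 7.09 and 10.9 TPM for expressed genes split the same way.

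**Figure D4:**
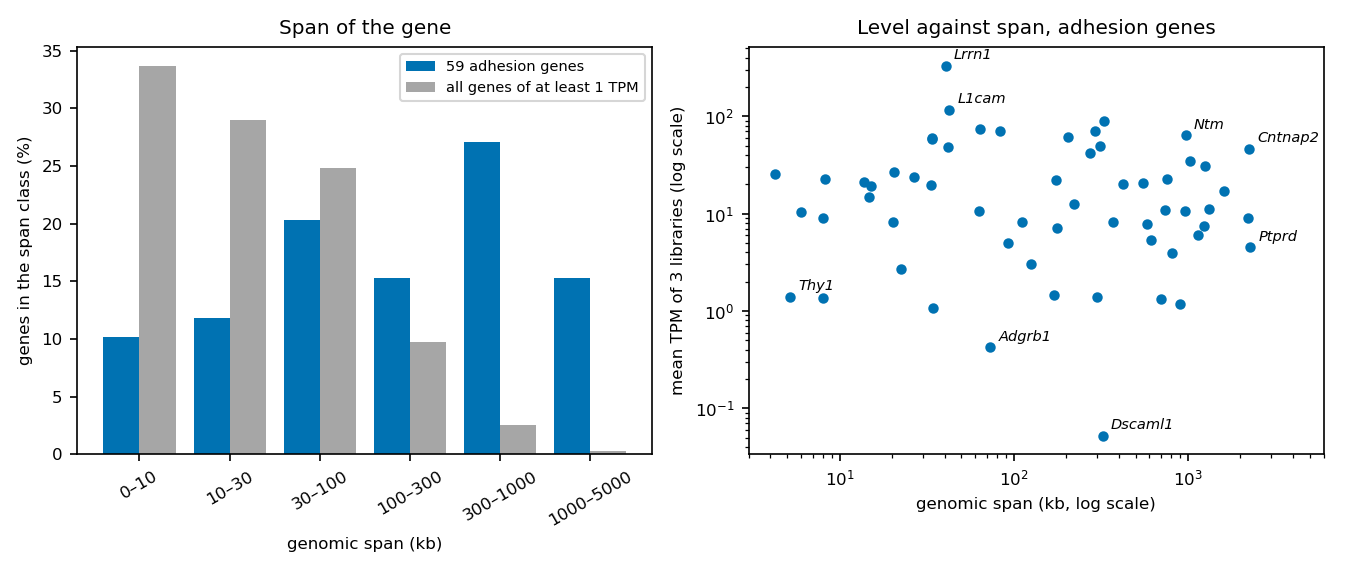
Share of genes in classes of genomic span (left, kb) for the 59 genes and for all genes of at least 1 TPM, and mean TPM against span for each listed gene (right, log axes). The listed genes fill the classes above 100 kb (57.6%, against 12.5%), and rho between level and span is -0.061.

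The relatives and partners of these genes were counted from 3 further lists. Of 30 relatives that are not on the list of 59, 23 reached 1 TPM, among them Ncam1 (173 ± 46.2 TPM) and Lrfn5 (39.4 ± 17.0 TPM). Of 28 extracellular partners 17 did, with the secreted Olfm1 (189 ± 51.1 TPM), the neurexin ligand Cbln2 (73.0 ± 2.70 TPM) and the calsyntenin Clstn3 (63.0 ± 29.5 TPM) at the top. C1ql1 and C1ql2, ligands of Adgrb receptors, had 0 counts in all libraries. Of 33 cytoplasmic partners 32 did, led by Lin7c (201 ± 102 TPM), a scaffold in the complex with Cask that binds neurexins, Epb41l3 (185 ± 73.1 TPM), a protein 4.1 that binds Cadm and Cntnap tails, and Msn (134 ± 60.6 TPM), which links membrane proteins such as L1cam to actin. Of these 91 relatives and partners, edgeR could test 81 for variation between libraries and called 0, nor was any a DESeq2 dispersion outlier. In the edgeR test 7 (8.64%, against 6.11% of all genes) had an unadjusted p under 0.05. The lists differed in this: 6 of 28 relatives tested (21.4%), 1 of 20 extracellular partners (5%) and 0 of 33 cytoplasmic partners.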

How the data were processed

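Libraries were made from 10 ng of total RNA by SMARTer amplification, shearing and 12 PCR cycles, per the labels' protocols. These name no molecular identifiers, so the counts may include PCR copies. Counts are raw reads for each Ensembl gene, as the authors deposited them together with gene lengths. The submitters' processing notes name Subread, featureCounts 1.4.5 and build GRCm38.p2. How strand and reads with several matches were handled is not given in the sources used here. The deposited CPM equalled the count scaled to the library total, and the deposited RPKM that value per kilobase of length. TPM was computed from counts and deposited lengths over all 41388 genes. Symbols came from GENCODE M21 (40254 genes matched). No statement in the labels makes the pools separate cultures or litters, so the spread covers pools and technical noise together.

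Variation between libraries was tested by edgeR 4.0.16 (R 4.3.3) on all genes kept by filterByExpr. After TMM scaling, a negative binomial model with only an intercept and a trended dispersion was fitted, and its deviance gave a goodness-of-fit test, since the quasi-likelihood test needs at least 2 groups. Differences between a library and the others used log2 CPM with a prior count of 2. The script was tested on simulated data. DESeq2 1.42.0 was an alternative. Other steps used Python 3.11.15, numpy 2.4.6, pandas 2.3.3, scipy 1.17.1 and matplotlib 3.10.9. Values per library are given for genes with a mean of at least 10 TPM and for the highest gene of each family. Of each list of relatives and partners the 3 highest are named, except for an item that is not reported here. The members, families and lists were chosen with earlier results of these data known. Protein stretches were planned but are not used here, and start regions are shown instead, from RefSeq's table for 45 of 59 genes. Alternatives were other thresholds, scalings, filters and dispersions, removal of the trend on length, and leaving out each library.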

Additional observations from a re-analysis of the deposited data

How the results depend on the processing

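The number of genes called variable between libraries depended on the setting. It was 24 as reported, 55 with the trend on gene length removed, 4 as dispersion outliers of DESeq2, and between 2 (without B) and 27 (without D) when 1 library was left out. Under each of these settings 0 of the listed genes tested were called. With the length trend removed, the median difference over the listed genes turned from 0.19 to -0.021 in A and from -0.08 to 0.064 in D. As CPM, 4 of 61 ratios changed sign: Chl1 to Nfasc (-0.15), Negr1 to Lsamp (-0.055), Nectin1 to Nectin3 (-0.95) and Ptprf to Ptprs (0.33). Leaving out a library turned 2 others, Cntnap2 to Cntnap4 (-0.41 without D, up to 0.37 without A) and Flrt1 to Flrt3 (-0.83 without D, up to 0.13 without A). A pseudocount of 0.1 TPM turned none. The count of genes at or above the threshold, 57 at 1 TPM, was between 50 and 57 under all alternatives. The 50 belongs to a threshold above 1 TPM. Totals without the 48 mitochondrial and hemoglobin genes moved no gene's level by more than its SD. Leaving out a library moved 4 means by over 1.5 times: without A, Adgrl2 went from 22.3 to 13.7 TPM, Tenm1 from 1.18 to 0.772 and Dscaml1 from 0.0523 to 0.016, and without B, Adgrb1 from 0.424 to 0.262. As CPM, 28 genes changed their rank within the list by more than its spread. No paired analysis was possible because the samples form 1 group. At these depths 3 counts correspond to between 0.103 and 0.149 CPM, so the levels of Dscaml1 rest on few reads.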
